A study of Mus musculus with 4 samples.

Results

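Epithelial-mesenchymal transition (EMT) is the programme in which cells loosen their junctions and take on a migratory form, and 10 of its regulators and markers were followed here in murine 4T1 triple-negative breast cancer (TNBC) cells. They were the epithelial genes Cdh1, Epcam and Esrp1, the mesenchymal genes Vim, Fn1 and Cdh2, and the transcription factors Snai1, Snai2, Zeb1 and Twist1. The members were chosen by gene symbol, and all 10 were found once among the 49585 genes measured by RNA-seq. The 4 libraries came from a pair of clones, each grown from a single 4T1 cell, 4T1-HM with a high and 4T1-LM with a low metastatic capacity. Each clone was cultured for 48 h with 50 μmol/L of deferasirox (DFX), an iron chelator, or with DMSO alone, and the libraries are named HM_Ctrl, HM_DFX, LM_Ctrl and LM_DFX. There was 1 library for each condition, so that no difference given here has a replicate check and none has a p-value. A difference between the clones cannot be told apart from a difference between any pair of 4T1 clones, because each is 1 clone.

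E-cadherin, encoded by Cdh1, joins neighbouring epithelial cells at adherens junctions, and Epcam encodes another adhesion protein of epithelial cells. Factors of the Snail, Zeb and Twist families are known to repress Cdh1, while vimentin (Vim), fibronectin (Fn1) and N-cadherin (Cdh2) are classical products of mesenchymal cells. Esrp1 encodes a splicing regulator that maintains epithelial isoforms. Many carcinoma cells carry epithelial and mesenchymal transcripts at the same time, and 4T1 cells are known to do so.

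The Snail and Zeb factors bind the E-box CACCTG, which reads CAGGTG on the other strand, and the promoters of an epithelial adhesion gene and of a repressor are therefore shown. RefSeq promoters (GRCm38.p6) were matched for 4 of the 10 members, Epcam, Snai1, Twist1 and Vim. The 250 bases before the start site are given 5′ to 3′ on the plus strand for Epcam (chr17:87635729-87635978) and Snai1 (chr2:167537945-167538194), with every E-box in capitals.
Epcam: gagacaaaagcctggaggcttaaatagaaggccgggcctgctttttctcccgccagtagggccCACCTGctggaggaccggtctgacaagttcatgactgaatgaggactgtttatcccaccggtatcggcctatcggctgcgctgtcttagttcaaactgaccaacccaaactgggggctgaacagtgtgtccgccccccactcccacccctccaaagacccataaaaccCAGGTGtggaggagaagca
Snai1: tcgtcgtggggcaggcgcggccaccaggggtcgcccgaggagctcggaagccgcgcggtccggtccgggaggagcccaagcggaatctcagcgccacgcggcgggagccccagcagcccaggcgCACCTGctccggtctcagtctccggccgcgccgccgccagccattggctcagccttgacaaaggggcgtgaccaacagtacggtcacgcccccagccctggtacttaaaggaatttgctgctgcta
The Epcam window held 2 E-boxes, CACCTG beginning 187 bases before the start site and CAGGTG beginning 19 bases before it. The Snai1 window held 1, CACCTG beginning 126 bases before the start site. In windows that also took in the first 50 bases of the transcript, none was found for Twist1 or Vim, and 20.2% of all 32851 promoters of that length held at least 1. A match is a description of the letters and says nothing of binding.

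In the gene coordinates of the matrix (mm10), the epithelial members were Cdh1 (ENSMUSG00000000303) on chromosome 8 from 106603351 to 106670246, Epcam (ENSMUSG00000045394) on chromosome 17 from 87635979 to 87651106 and Esrp1 (ENSMUSG00000040728) on chromosome 4 from 11331933 to 11386783. The mesenchymal members were Vim (ENSMUSG00000026728) on chromosome 2 from 13573927 to 13582826, Fn1 (ENSMUSG00000026193) on chromosome 1 from 71585520 to 71653200 and Cdh2 (ENSMUSG00000024304) on chromosome 18 from 16588877 to 16809246. Of the factors, Snai1 (ENSMUSG00000042821) lay on chromosome 2 from 167538195 to 167542814 and Snai2 (ENSMUSG00000022676) on chromosome 16 from 14705852 to 14709395. Zeb1 (ENSMUSG00000024238) lay on chromosome 18 from 5591860 to 5775467 and Twist1 (ENSMUSG00000035799) on chromosome 12 from 33957671 to 33959817. All are protein-coding, and a member shared at most 2.92% of its 31-base words with other genes, the highest share being that of Snai2. Fn1 overlaps the antisense gene Apol7d, which had an FPKM of 3.08 to 6.14. Esrp1 and Cdh2 each overlap 1 gene on the opposite strand, and Zeb1 overlaps 3 genes, 2 of them on the opposite strand. Whether strand was used in counting is not given in the sources used here.

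Levels are FPKM, fragments per kilobase of transcript, scaled to the fragments of the library, and the interval after a level is an exact Poisson 95% interval that covers counting error only. The libraries held 14363065 to 21883855 fragments, a total solved from the FPKM. Of the marker lists, 5 of 7 mammary keratins reached an FPKM of 1 in every library, with summed levels of 1646 (DMSO) and 508 (DFX) in HM and of 2172 and 989 in LM, while Krt5 was at 0. Pgr was at 0, and Erbb2 lay between 3.80 and 12.5. The fibroblast list summed to 3.498 to 5.63, with 1 of 6 genes (Pdgfra) at 1 or more and Pdgfrb and Lum at 0. The endothelial list reached at most 0.203, with 0 of 4 genes at 1 or more. The immune list summed to 12.9 (DMSO) and 37.4 (DFX) in HM and to 12.3 and 83.1 in LM, nearly all of it Cd68, a lysosomal protein gene that is not limited to macrophages, and Cd3e and Adgre1 were at 0. In bulk samples, fewer cells of a type and less RNA per cell cannot be told apart.

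The members that passed the filter on low values were 7, Cdh1, Epcam, Esrp1, Vim, Fn1, Snai1 and Twist1, and each reached an FPKM of 1 in all 4 libraries. Vim was the highest in each library and was among the most abundant transcripts of these cells, above 99.4% of the 12669 expressed genes in HM_DFX and above 99.8% in HM_Ctrl. Fn1 followed in every library, and Cdh1 came next. Thus the mRNA of a leading epithelial junction gene and those of the main mesenchymal genes were abundant in the same cultures.

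**Figure D1:**
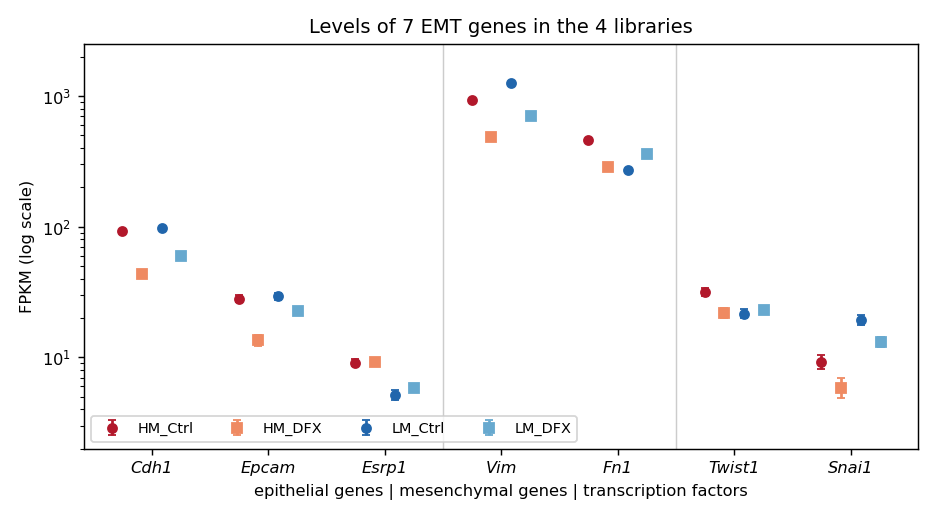
FPKM on a log scale (y axis) for the 7 expressed members (x axis) in the 4 libraries. Circles are DMSO and squares DFX, with red for HM and blue for LM. Bars are exact Poisson 95% intervals, which cover counting error only. Vim ranged from 482 in HM_DFX to 1251 in LM_Ctrl, and Fn1 stands out by being higher with DFX in LM and lower with DFX in HM.

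Below Cdh1, the order of the members differed between the libraries. In HM_Ctrl, Twist1 (31.6, interval 29.5 to 33.8) and Epcam (28.2, 26.4 to 30.0) had overlapping intervals, as had Snai1 (9.28, 8.17 to 10.5) and Esrp1 (9.11, 8.55 to 9.71). In LM_Ctrl, Epcam (29.3, 27.4 to 31.2) stood above Twist1 (21.7, 19.9 to 23.6), whose interval overlapped that of Snai1 (19.5, 17.8 to 21.3), and Esrp1 was lowest at 5.15. In HM_DFX the order was Twist1 at 22.1, Epcam at 13.6, Esrp1 at 9.23 and Snai1 at 5.84, with no overlap between neighbours. Esrp1 was thus above Snai1 in HM_DFX and below it in both LM libraries. In LM_DFX, Twist1 (22.9) and Epcam (22.6) overlapped, followed by Snai1 at 13.1 and Esrp1 at 5.81.

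The other 3 members were at or near 0. Cdh2 had 0 fragments in all 4 libraries, where the upper end of the exact Poisson interval lay at an FPKM of 0.0209 to 0.0318. Snai2, which encodes Slug, also had 0 fragments in all 4, with an upper end of 0.0834 to 0.127. Transcripts of N-cadherin and Slug were therefore not detectable at this depth, in HM or LM and with or without DFX. For Zeb1, 2 fragments were found in HM_Ctrl, 22 in LM_Ctrl, 8 in LM_DFX and 0 in HM_DFX, with 0.138 (interval 0.0866 to 0.209) the highest FPKM. Between the control libraries the Zeb1 level was 11.7-fold higher in LM, with a counting interval of 2.88 to 103 that shows how few fragments stand behind it. With DFX in LM, Zeb1 was at 0.261 of its control level (exact binomial interval 0.101 to 0.610). All of these Zeb1 values lie far under the FPKM of 1 at which a gene was counted as expressed. Its paralogue Zeb2, which encodes another E-box repressor and was not a member, was expressed at 3.91 (DMSO) and 7.85 (DFX) in HM and at 2.38 and 5.06 in LM, so that its log2 fold change with DFX was 0.85 in HM and 0.84 in LM.

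The first comparison asked whether the clone with the higher metastatic capacity differed in EMT transcripts without treatment. Fold changes here are log2 of the ratio of FPKM + 1, which understates changes of low genes, and a gene was called at 2-fold or more among the 12669 expressed genes, those that reached an FPKM of 1 in any library. None of the 7 expressed members was called in HM_Ctrl against LM_Ctrl, where 3.65% of all expressed genes were called higher and 3.15% lower. Snai1 was called lower under median-ratio scaling (-1.002) and with a pseudocount of 0.1 (-1.06). The median over the 7 was -0.05, and that over all expressed genes was 0.01.

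Among epithelial members, Cdh1 was at 92.5 in HM_Ctrl against 96.9 in LM_Ctrl, for a log2 fold change of -0.07. Epcam, at 28.2 and 29.3, had a ratio of 0.963 whose exact binomial 95% interval (0.879 to 1.05) includes no difference. Esrp1 was higher in HM_Ctrl, at 9.11 against 5.15, a log2 fold change of 0.72 and a ratio of 1.77 (interval 1.59 to 1.97). The adhesion genes were thus at about the same level in both clones, and Esrp1 was not. Its paralogue Esrp2, which was not a member, differed in the other direction, at 4.17 in HM_Ctrl and 7.13 in LM_Ctrl (-0.65).

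The mesenchymal members differed in opposite directions. Vim was at 937 in HM_Ctrl and 1251 in LM_Ctrl (log2 fold change -0.42), and Fn1 was at 461 and 271 (0.76). Fibronectin mRNA was therefore higher, and vimentin mRNA lower, in the clone with the higher metastatic capacity. The factors divided in the same way. Snai1 was at 9.28 in HM_Ctrl and 19.5 in LM_Ctrl, and Twist1 was at 31.6 and 21.7. The Snai1 value of -0.995 lay just inside the 2-fold limit, and its ratio of 0.476 (0.408 to 0.555) was taken on FPKM without the added 1. Twist1 had a log2 fold change of 0.52 and a ratio of 1.46 (1.31 to 1.63). Twist1 mRNA was 3.403 times Snai1 mRNA in HM_Ctrl and 1.11 times in LM_Ctrl, a 3.06-fold difference in the balance of the factors.

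**Figure D2:**
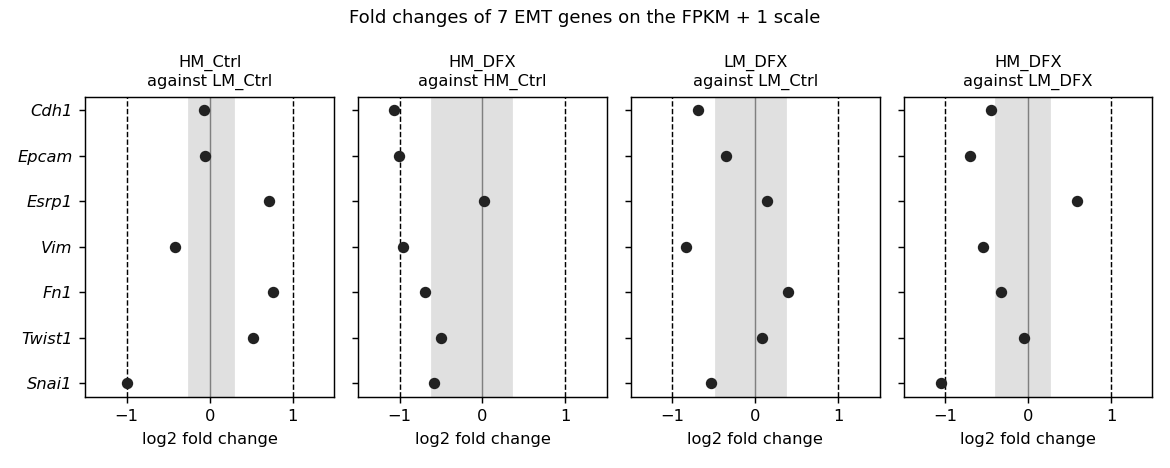
Log2 fold changes on the FPKM + 1 scale (x axis) of the 7 expressed members (y axis), with 1 panel for each comparison of 2 libraries. Dashed lines mark 2-fold and the grey band holds the middle 50% of all expressed genes. Cdh1 (-1.07) and Epcam (-1.003) pass the line in HM with DFX, and Snai1 (-1.04) passes it between the DFX libraries.

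The effect of DFX was compared next within HM. In HM_DFX against HM_Ctrl, 6 of the 7 expressed members had a value below 0, from the epithelial and the mesenchymal side, and the median was -0.69 against -0.10 over all expressed genes. Cdh1 and Epcam were called lower, and 0 members were called higher, where 12.4% of all expressed genes were called lower and 6.93% higher. Under median-ratio scaling, which sets the median of all genes to 0, the calls over all genes were 1128 higher and 1277 lower in place of 878 and 1568. Under that scaling neither member was called, with Cdh1 at -0.93 and Epcam at -0.87.

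Cdh1 was at 92.5 in HM_Ctrl and 43.7 in HM_DFX, a log2 fold change of -1.07 and a ratio of 0.472 (interval 0.452 to 0.493). Epcam was at 28.2 and 13.6, with a log2 fold change of -1.003 that barely passed the limit and a ratio of 0.481 (0.427 to 0.541). Esrp1 was level, at 9.11 and 9.23 (ratio 1.01, 0.922 to 1.11). Both adhesion genes were therefore lower, and Esrp1 was not. The summed keratin level was also lower, at 508 against 1646, and its part in the Cdh1 and Epcam values was not tested.

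Vim was at 937 in HM_Ctrl and 482 in HM_DFX, just inside the limit with a log2 fold change of -0.96 (ratio 0.514, 0.508 to 0.521). Fn1 was at 461 and 285 (-0.69, ratio 0.619, 0.612 to 0.626). Snai1 was at 9.28 and 5.84 (-0.59), with 252 and 136 fragments, and its ratio of 0.629 had an interval of 0.507 to 0.778. Twist1 was at 31.6 and 22.1 (-0.50, ratio 0.698, 0.625 to 0.780). Hence the mesenchymal genes and both expressed factors were lower together with the epithelial adhesion genes, and none of these counting intervals includes a ratio of 1. Among markers of other cell types, Cd68 was at 12.9 and 37.4 and the fibroblast list at 3.498 and 4.65 in these libraries, and their part in the result was not tested.

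In LM_DFX against LM_Ctrl, 0 members were called in either direction, where 7.09% of all expressed genes were called higher and 8.72% lower. The median of the 7 was -0.36, and that of all expressed genes -0.04. Vim had the largest difference, at 1251 in LM_Ctrl and 702 in LM_DFX (-0.83, ratio 0.561). Cdh1 was at 96.9 and 59.9 (-0.69, ratio 0.618), Snai1 at 19.5 and 13.1 (-0.54, ratio 0.673) and Epcam at 29.3 and 22.6 (-0.36, ratio 0.773). These 4 members lay below their control level in LM as in HM. Esrp1 was at 5.15 and 5.81, with a ratio of 1.13 (1.01 to 1.26). Twist1, at 21.7 and 22.9, did not differ beyond counting error (ratio 1.06, 0.947 to 1.18). Fn1 was higher with DFX in this clone, at 271 in LM_Ctrl and 357 in LM_DFX (0.40, ratio 1.32, 1.30 to 1.33). The summed keratin level was 2172 and 989 in these libraries, with 4 of the 5 expressed keratins lower. Krt19 was higher, at 46.4 and 103 (1.14). Cd68 was at 12.3 and 83.1 and the fibroblast list at 3.78 and 5.63, with Pdgfrb and Lum at 0. The part of these markers in the values of the members was not tested.

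The response to DFX in HM minus that in LM was below 0 for all 7 expressed members, Snai1 alone being above 0 (0.02) under median-ratio scaling, with a median of -0.38 against -0.08 for all expressed genes. Fn1 alone among the 7 was past 2-fold, at -1.09, where 5.38% of all expressed genes were as far below 0 and 3.52% as far above it. Epcam followed at -0.65, Twist1 at -0.58 and Cdh1 at -0.38, and Esrp1 (-0.13), Vim (-0.12) and Snai1 (-0.05) were nearly alike in both clones. Under median-ratio scaling the Fn1 value was -0.998, just inside the limit. With 1 library for each condition these differences of responses could not be tested.

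**Figure D3:**
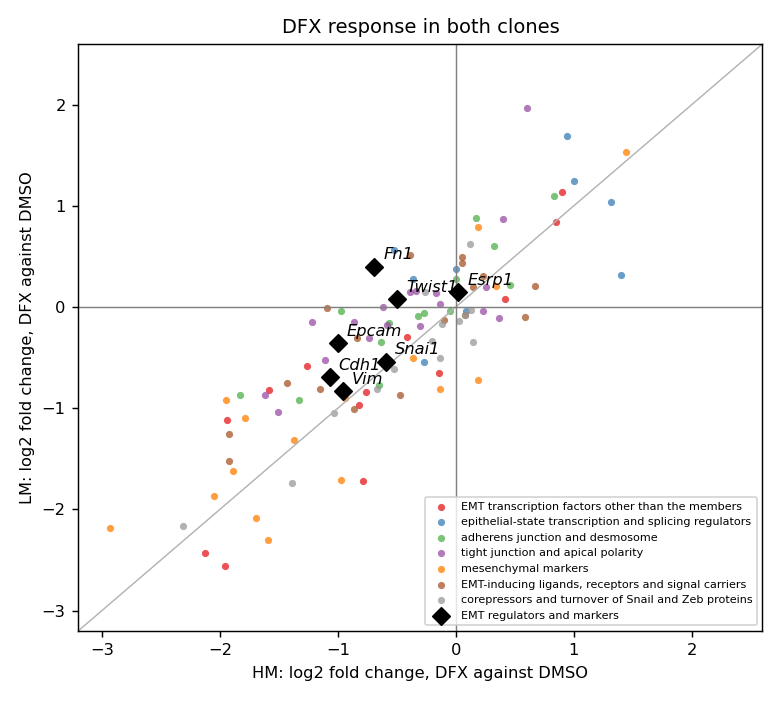
Log2 fold change with DFX in LM (y axis) against that in HM (x axis) on the FPKM + 1 scale, for the 7 expressed members (black diamonds, named) and the expressed genes of the 7 other EMT lists (coloured points). The grey diagonal marks equal responses. Every named gene lies above the diagonal, which Snai1 would not under median-ratio scaling (a difference of 0.02), with Fn1 farthest from it at -0.69 in HM and 0.40 in LM. The median of HM minus LM over all expressed genes was -0.08.

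In HM_DFX against LM_DFX, the clones were compared under chelation. These are the libraries that also serve in the comparisons with DMSO, and the values are no independent repeat of them. Snai1 was called lower, at 5.84 in HM_DFX and 13.1 in LM_DFX (-1.04, ratio 0.446, 0.365 to 0.541), and no other member was called, where 5.05% of all expressed genes were called lower and 3.31% higher. Under median-ratio scaling the Snai1 value was -0.98 and was not called. Epcam was at 13.6 and 22.6 (-0.70), Vim at 482 and 702 (-0.54), Cdh1 at 43.7 and 59.9 (-0.45) and Fn1 at 285 and 357 (-0.33). Esrp1 was the only 1 of the 7 above 0, at 9.23 and 5.81 (0.59), and Twist1 was level, at 22.1 and 22.9 (ratio 0.963, 0.861 to 1.08), with a sign that turned from -0.05 to 0.02 under median-ratio scaling. Fn1 was thus higher in HM without DFX and higher in LM with it.

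Ratios of members within a library do not depend on the scaling between libraries. Cdh1 over Vim, an epithelial over a mesenchymal transcript, was 0.0987 (exact binomial interval 0.0963 to 0.101) in HM_Ctrl, 0.0906 (0.0872 to 0.0941) in HM_DFX, 0.0775 (0.0756 to 0.0794) in LM_Ctrl and 0.0853 (0.0831 to 0.0876) in LM_DFX. With DFX this ratio was 1.09-fold lower in HM and 1.10-fold higher in LM, although both genes had lower levels in each clone. Epcam over Cdh1 was 0.305 in HM_Ctrl, 0.310 in HM_DFX and 0.302 in LM_Ctrl, with overlapping intervals, and 0.378 (0.353 to 0.404) in LM_DFX. The epithelial adhesion genes thus kept nearly the same proportion in 3 of the 4 libraries. Snai1 over Cdh1, a repressor over its known target, was 0.1004 and 0.134 in HM (DMSO, then DFX) and 0.201 and 0.219 in LM, higher in both LM libraries than in either HM library.

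Fn1 over Vim was 0.492 (DMSO) and 0.591 (DFX) in HM and 0.217 and 0.509 in LM. LM_Ctrl stood apart from the other 3 libraries, and with DFX the ratio was 2.35-fold higher in LM and 1.20-fold higher in HM. Relative to vimentin, fibronectin mRNA was therefore higher with DFX in both clones. Twist1 over Snai1 was 3.403 and 3.78 in HM (DMSO, then DFX) and 1.11 and 1.75 in LM, with no overlap between the HM and LM libraries.

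**Figure D4:**
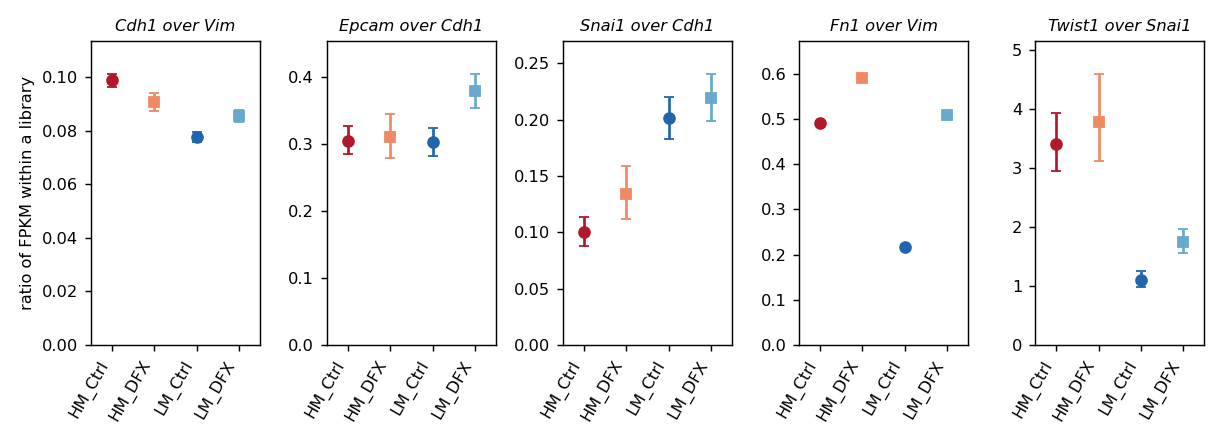
Ratios of the FPKM of 2 members within each library (y axis, from 0) for the 4 libraries (x axis), with exact binomial 95% intervals that cover counting error only. Cdh1 over Vim stays between 0.0775 and 0.0987, whereas Fn1 over Vim is lowest in LM_Ctrl at 0.217 and Twist1 over Snai1 separates HM from LM.

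The members whose levels ranged over at least 2-fold on the FPKM + 1 scale were Snai1 (log2 range 1.58), Vim (1.37), Cdh1 (1.13) and Epcam (1.06). For each, the 3 protein-coding genes with the most similar profile were found by the distance between log2 values centred on their mean over the 4 libraries, a description over 4 points only. Those nearest to Cdh1 included Tecr (distance 0.020) and Mrps25 (0.035), and those to Epcam were Aurkb (0.056), Pts (0.067) and Mast3 (0.070). For Vim they were Gimap9 (0.050), Pole2 (0.054) and Polr3k (0.068), and for Snai1 they were Fez2 (0.113), Arhgdig (0.117) and Kcnk1 (0.155). Among the members, Cdh1 was about as near to Vim (0.257) as to Epcam (0.265), and farther from Snai1 (0.840). Many other genes were nearer, since Vim ranked only 288 and Epcam 322 in nearness to Cdh1 among expressed protein-coding genes.

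The other genes of the programme were described by 7 lists, given by counts and medians. Over all expressed genes, 12.4% were called lower and 6.93% higher in HM with DFX (median -0.10), and 8.72% and 7.09% in LM (median -0.04), and each list is read against these shares. The list of 18 further EMT transcription factors also holds the inhibitor genes Id1, Id2 and Id3, and 13 of the 18 were expressed. With DFX 5 were called lower in HM (38.5%, against 12.4% of all expressed genes) and 4 in LM (30.8%, against 8.72%). Id1 and Id3 are counted among these in both clones, so the shares are not those of DNA-binding factors alone. The list medians were -0.79 in HM and -0.82 in LM. Sox9, at 25.01 in LM_Ctrl and 56.3 in LM_DFX, was the only 1 called higher, and under median-ratio scaling it was called higher in HM too. Zeb2, described above, belongs to this list and was also higher with DFX in both clones (0.85 in HM, 0.84 in LM). It stayed uncalled on the FPKM + 1 scale, which understates changes of low genes. The largest falls were those of Id1 and Id3, which encode dominant-negative inhibitors of basic helix-loop-helix factors. Id1 was at 17.3 in HM_Ctrl and 3.18 in HM_DFX (-2.13), and at 15.8 in LM_Ctrl and 2.13 in LM_DFX (-2.43). Id3 was at 21.3 and 4.74 in HM (-1.96) and at 16.3 and 1.94 in LM (-2.56). The other genes called lower were the forkhead genes Foxc2 (-1.94 in HM, -1.12 in LM) and Foxc1 (-1.26 in HM), Tcf4 (-1.58 in HM) and Sox4 (-1.72 in LM). Between the clones, 2 of the 13 were called higher in HM with DMSO (15.4%, against 3.65% of all expressed genes) and 0 lower. With DFX 3 were called higher in HM (23.1%, against 3.31%) and 0 lower. Id2 was at 21.1 in HM against 7.56 in LM with DMSO and 11.6 against 3.38 with DFX, and Sox4 was at 41.9 in HM_DFX and 16.2 in LM_DFX. Foxq1 was at 4.52 against 0.455 with DMSO (1.92) and 6.40 against 0.534 with DFX (2.27). It passed the filter on low values only through the HM libraries.

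Of 12 epithelial-state regulators 9 were expressed, and 3 were called higher and 0 lower with DFX in each clone (33.3%, against 6.93% of all expressed genes in HM and 7.09% in LM). Under median-ratio scaling 4 were called higher in HM, with Ovol1 added. Klf5, which encodes a factor of epithelial progenitors, was at 66.97 in HM_Ctrl and 135 in HM_DFX, and at 35.8 in LM_Ctrl and 86.7 in LM_DFX. Its call in HM stood at the limit (1.0). The others were Foxa1 (1.32 in HM, 1.04 in LM), Grhl1 in HM (1.40) and Ovol1 in LM (1.69), all transcription factors of epithelia. Grhl1 passed the filter on low values only through HM_DFX (3.38, against 0.665 in HM_Ctrl). It could therefore enter the HM share only as a higher gene. The list median was 0.09 in HM and 0.38 in LM. In HM 5 of the 9 lay above 0 and 4 below it, and in LM 7 lay above 0 and 2 below it. Those below 0 in HM included Gata3 (-0.52) and Grhl2 (-0.36), which lay above 0 in LM (0.56 and 0.28). The regulators thus differed in direction in HM, where Cdh1 and Epcam were lower.

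Of 14 expressed genes of adherens junctions and desmosomes, 2 were called lower in HM with DFX, Ctnnb1 and Nectin2, a share of 14.3% that is near the 12.4% of all expressed genes. The list median was -0.30 in HM and -0.05 in LM. Ctnnb1 encodes β-catenin, which binds the tail of E-cadherin, and it was at 251 in HM_Ctrl and 70.2 in HM_DFX (-1.83). Nectin2, another adhesion gene, was at 10.1 and 3.43 (-1.33). In LM none of the list was called lower, and Pkp2, a desmosome gene, was called higher, at 12.4 and 27.6. Dsg2, a desmosomal cadherin, was at 6.08 in HM_DFX and 13.99 in LM_DFX. Of 19 expressed tight junction and polarity genes, 4 were called lower in HM (21.1%, against 12.4% of all expressed genes). In LM 1 was called lower and 1 higher (5.26% each), below the shares of all expressed genes, 8.72% and 7.09%. The list median was -0.39 in HM and -0.11 in LM. They included Spint1, a protease inhibitor of epithelia, at 29.1 and 8.81 in HM (-1.62), and the claudin gene Cldn3, at 107 and 48.9 (-1.11), whose call was lost under median-ratio scaling. Also called were the protease gene Prss8 (-1.51 in HM, -1.04 in LM) and the polarity gene Crb3, which was higher in LM at 0.447 and 4.68 (1.97). Cldn4 was lower in HM than in LM in both conditions, at 18.0 against 43.2 with DMSO and 11.3 against 43.2 with DFX, and St14, a membrane protease, was at 9.80 in HM_DFX and 21.8 in LM_DFX.

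Of 35 further mesenchymal markers 16 were expressed, and with DFX 8 were called lower and 1 higher in each clone, with medians of -1.17 in HM and -1.01 in LM. The share called lower was 50.0%, against 12.4% of all expressed genes in HM and 8.72% in LM, and the share called higher (6.25%) was near that of all expressed genes, 6.93% and 7.09%. Mmp3, a matrix metalloproteinase, was at 100.3 in HM_Ctrl and 12.3 in HM_DFX (-2.93), and at 25.3 in LM_Ctrl and 4.80 in LM_DFX (-2.18). Axl, a receptor tyrosine kinase, was at 242 and 61.8 in HM (-1.95), and Thbs1, the matrix protein thrombospondin, at 241 and 48.0 in LM (-2.30). Itga5, the fibronectin-binding integrin subunit, was the only 1 called higher, at 18.3 and 51.3 in HM (1.44) and 22.3 and 66.3 in LM (1.53). The mesenchymal list thus lay lower with DFX in both clones, beside Vim, while Fn1 was lower in HM and higher in LM. Itga5 did not follow the list in either clone, whereas the integrin subunit gene Itgb3 was called lower in both (-2.05 in HM, -1.87 in LM). Without DFX, 6 of the 16 were called lower (37.5%, against 3.15% of all expressed genes) and 1 higher in HM than in LM. Among them, the integrin subunit Itgb3 was at 4.52 in HM_Ctrl and 12.4 in LM_Ctrl. Between the DFX libraries, the matrix protein gene Sparc was at 12.8 in HM and 38.8 in LM.

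The next list held ligands, receptors and signal carriers of pathways that can induce EMT, not all of which act in its favour. Of its 17 expressed genes, 5 were called lower in HM with DFX (29.4%, against 12.4% of all expressed genes). In LM 3 were called lower (17.6%, against 8.72%), and none was called higher in either clone. The list median was -0.39 in HM and -0.10 in LM. Tgfb3, a ligand of the transforming growth factor β family, was at 19.7 in HM_Ctrl and 4.47 in HM_DFX, and at 17.1 in LM_Ctrl and 5.31 in LM_DFX. Tgfb1 was at 14.5 and 4.75 in HM, and lower in HM_DFX than in LM_DFX, where it was at 10.7. Met, the receptor for hepatocyte growth factor, was at 26.4 in LM_Ctrl and 12.7 in LM_DFX. The others were Fgfr2 (-1.92 in HM, -1.25 in LM), Hif1a (-1.15 in HM) and Hmga2 (-1.09 in HM), and the calls of Hmga2 in HM, of Met in LM and of Tgfb1 between the DFX libraries were lost under median-ratio scaling. Under that scaling Egfr and Tgfbr1 were called higher in HM_DFX than in LM_DFX, so that the list had 2 higher and 0 lower in place of 0 and 1. Jag1, a Notch ligand, was at 10.2 in HM_Ctrl and 22.3 in LM_Ctrl. Of 14 expressed corepressors and turnover factors of Snail and Zeb proteins, 3 were called lower in each clone (21.4%, against 12.4% of all expressed genes in HM and 8.72% in LM), with medians of -0.16 and -0.34. Ajuba, a LIM protein that acts with Snail, was at 38.9 and 7.04 in HM (-2.31) and 63.4 and 13.5 in LM (-2.16), and the histone deacetylase gene Hdac1 was at 26.9 and 12.6 in HM and 28.2 and 13.1 in LM. The third was Usp27x, a deubiquitinase gene (-1.39 in HM, -1.74 in LM), and the Hdac1 calls were lost in both clones under median-ratio scaling.

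**Figure D5:**
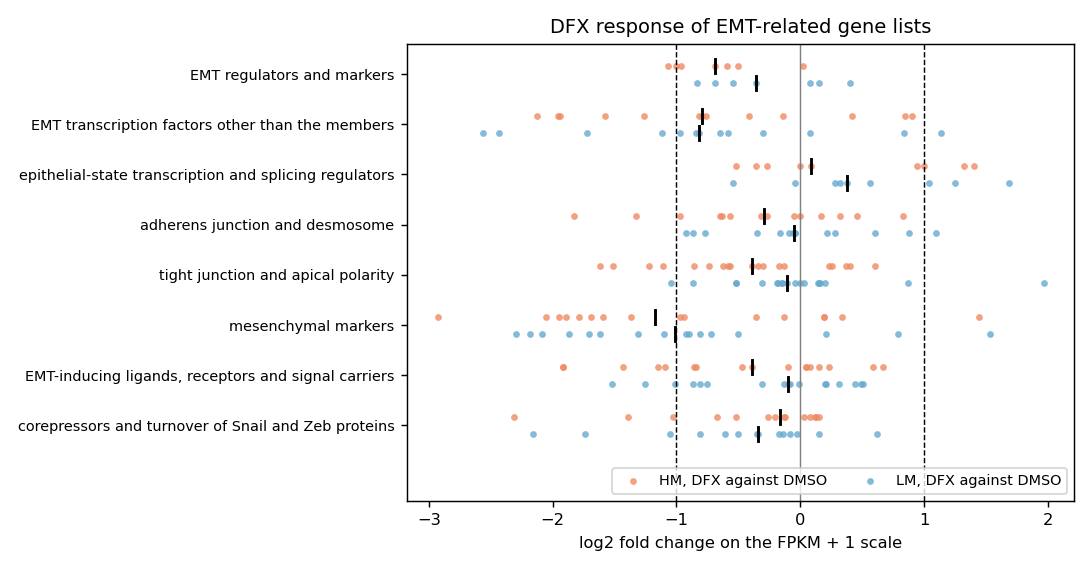
Log2 fold change with DFX on the FPKM + 1 scale (x axis) of each expressed gene of the members and of the 7 other lists (y axis), in orange for HM and light blue for LM. Short black lines are list medians and dashed lines mark 2-fold. Among the lists shown, the mesenchymal markers have the lowest medians (-1.17 in HM, -1.01 in LM), and the epithelial-state regulators lie at 0.09 and 0.38. The mammary keratins, which are not shown, had lower medians still (-1.62 in HM, -1.5 in LM).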

How the data were processed

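The authors sequenced poly(A)-selected, directional libraries (ribosomal RNA depletion is also mentioned), and the submitters' processing notes name FastQC, Trimmomatic, HISAT2, featureCounts and build mm10, without versions. The deposited values were FPKM, from the authors, for 49585 genes in 4 libraries. All per-sample columns were used. Depth came from the FPKM themselves. With exon lengths of GENCODE M21, 96.8% of 18235 genes above 0 gave whole fragments within 0.02 in all libraries, and 32 list genes, Epcam, Zeb1 and Twist1 among them, used a length solved from their own values. Fold changes are log2 of FPKM + 1, with a filter of FPKM 1 and calls at 2-fold. The paper's count test needs replicates and was not run. Poisson and Clopper-Pearson 95% intervals from recovered fragments (scipy 1.17.1) cover counting error only. Named genes were the 10 members and, for each list, comparison and direction, up to 2 called genes with the largest change, where the higher of the libraries compared reached an FPKM of 10. Zeb2, Esrp2, Gata3, Grhl2, Krt19, the keratin counts and medians, and the genes that complete short counts, were added after their values were seen. Some results that this rule covers are not reported here. The members and lists were chosen with earlier results of these data known. The calling was tested on simulated data. Alternatives were a pseudocount of 0.1, no filter, median-ratio and 75th percentile scaling, thresholds of 1.5-fold and 4-fold, and protein-coding genes only. The tools were Python 3.11.15, numpy 2.4.6 and pandas 2.3.3.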

Additional observations from a re-analysis of the deposited data

Results flagged for a closer look

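Fn1 moved in opposite directions with DFX in the clones. Its log2 fold change was -0.69 in HM (461 to 285 FPKM) and 0.40 in LM (271 to 357 FPKM), so that the response in HM minus that in LM was -1.09, and the difference was not tested, since each condition had 1 library. Twist1 also had opposite signs, -0.50 in HM (31.6 to 22.1) and 0.08 in LM (21.7 to 22.9), with a response difference of -0.58 that was likewise not tested, and its ratio in LM had a counting interval of 0.947 to 1.18 that includes 1.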

How the results depend on the processing

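Under median-ratio scaling the members past 2-fold were 0 in HM_DFX against HM_Ctrl, 0 in HM_DFX against LM_DFX, and 1 (Snai1, at -1.002) in HM_Ctrl against LM_Ctrl, where a pseudocount of 0.1 also gave 1 (Snai1, at -1.06). At a 1.5-fold threshold the counts were 3 in HM_Ctrl against LM_Ctrl (Esrp1, Fn1 and Snai1), 5 in HM_DFX against HM_Ctrl (Cdh1, Epcam, Fn1, Snai1 and Vim), 2 in LM_DFX against LM_Ctrl (Cdh1 and Vim) and 3 in HM_DFX against LM_DFX (Epcam, Esrp1 and Snai1). At 4-fold they were 0 in HM_DFX against HM_Ctrl and 0 in HM_DFX against LM_DFX. No filter, 75th percentile scaling and protein-coding genes only left the 4 counts as they were. For HM_DFX against HM_Ctrl over all expressed genes, a pseudocount of 0.1 gave 1234 higher and 2397 lower calls, a 1.5-fold threshold 2031 and 3297, and a 4-fold threshold 111 and 166. Of 140 alternative values for single members, 6 changed their side of the limit (2 past it and 4 no longer past it), 5 uncalled ones moved by 0.1 or more on the log2 scale without crossing it, Snai1 in HM_DFX against LM_DFX stayed called at -1.15 with a pseudocount of 0.1, none of the calls turned its direction, and 2 uncalled values changed sign (Twist1 between the DFX libraries and the response difference of Snai1). No paired analysis was possible because each condition had 1 library. Depth limits Zeb1, Cdh2 and Snai2, which had 0 to 22 fragments, and the 136 fragments of Snai1 in HM_DFX leave its ratio to HM_Ctrl between 0.507 and 0.778.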
